A study of Mus musculus with 16 samples.

Results

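The gp130 cytokines and receptors were followed in pulmonary endothelial cells (ECs) of mice with LPS-induced lung injury, as 9 of the 54532 genes measured: the cytokine genes Il6, Lif, Osm and Il11, the receptor genes Il6ra, Il6st, Lifr and Osmr, and the transcription factor gene Stat3. The genes were chosen by name, and each was found once. RNA-seq was performed on whole-population RNA of lung cells carrying CD31 and depleted of cells carrying CD45 by magnetic beads. In the first experiment, male WT C57/BL6J mice, 8 weeks old, received saline (n = 4) or 10 mg/kg LPS (n = 6) into the trachea. In the second, Fgfr1 loxP/loxP mice (n = 3) and Fgfr1 iΔEC/iΔEC mice (n = 3), the latter carrying a tamoxifen-inducible Cre driven by the VE-cadherin promoter on the same loxP/loxP background, all received 2 mg/kg LPS. Tamoxifen was injected into both genotypes before LPS to induce the deletion in ECs, and the loxP/loxP controls were littermates. Cells were collected at 24 h in every group. No group of the second experiment received saline, so LPS is shared by both genotypes there, and those mice were adult. Reads on genes were 13478726 to 18807007 in the saline libraries, 17840221 to 19043015 in the LPS libraries, 15969575 to 17002788 in the loxP/loxP libraries and 16642177 to 16943522 in the iΔEC/iΔEC libraries.

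Cytokines of this family signal through a shared chain, gp130, which is encoded by Il6st. IL-6 first binds the IL-6 receptor (Il6ra) on the membrane or shed into plasma, IL-11 binds its own receptor chain, and LIF and oncostatin M (Osm) join gp130 with the LIF receptor (Lifr) or the oncostatin M receptor (Osmr). The assembled receptor activates JAK kinases that phosphorylate STAT3, and STAT3 induces acute-phase and feedback genes, among them Socs3, whose product blocks the gp130 chain. ECs are known for abundant gp130 and for responding to IL-6 bound to shed receptor. Transcript levels say nothing of the phosphorylation of STAT3.

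Il6 and Lif were the least abundant called members, and the promoters of both carried a match to the NF-kB consensus. The RefSeq promoter table (GRCm38.p6) held 8 of the 9 members, Osm being the one without an entry, and the 250 bases before each start were searched on both strands. An NF-kB consensus match was present in 7.25% of 32851 promoters (8.23% of 27025 genes) and a STAT match (TTCNNNGAA) in 7.02% (8.13% of genes). Among the members, Il6 and Lif held an NF-kB match, at 44 and 178 bases before the start, and no STAT match was found in any of the 8. Of 28 negative regulators and STAT3 targets listed, 21 had a promoter in the table, of which 3 held a STAT match (Socs3, Bcl6 and Itih4) and 3 an NF-kB match (Pias1, Fos and Fosl2). The match of Socs3, the feedback gene of the pathway, began 154 bases before its start. The Il6 promoter (chr5:30012864-30013113, plus strand) is shown whole, and for Lif (chr11:4257375-4257414, plus strand) and Socs3 (chr11:117969497-117969535, minus strand) a window around the match, each 5′ to 3′ with the matched bases in capitals. A match describes letters and is not a measured binding site.
Il6 promoter: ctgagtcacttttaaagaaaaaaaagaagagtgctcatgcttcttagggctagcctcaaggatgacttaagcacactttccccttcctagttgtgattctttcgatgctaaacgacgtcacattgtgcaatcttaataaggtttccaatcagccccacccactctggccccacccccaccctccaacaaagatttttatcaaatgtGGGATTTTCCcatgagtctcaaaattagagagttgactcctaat
Lif window: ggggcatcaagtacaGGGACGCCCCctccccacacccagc
Socs3 window: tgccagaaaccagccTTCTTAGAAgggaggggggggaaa

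To ask how the family changed with LPS, the 6 LPS libraries were compared with the 4 saline libraries. In LPS 5 members were higher (Il6, Lif, Osm, Il6ra and Stat3), the receptor genes Il6st and Lifr were lower, Osmr did not pass the test, and Il11 was too low to be tested. Values are FPKM as deposited, a level per gene length that already carried median-of-ratios scaling between libraries. The test was limma on log2(FPKM + 1) with Benjamini-Hochberg adjustment over 14893 genes. A call was an adjusted p at or under 0.05 without a limit on the fold change. Of all genes tested, 29.5% were called higher and 23.7% lower, so being called in either direction was common. The split between directions moved with the scaling, from 4399 genes higher and 3529 lower to 3463 higher and 4669 lower when libraries were scaled on total reads. Il6 and Lif passed the filter of a mean of 0.5 FPKM only through the LPS group, where they are high, and had to differ, so the count over the members is a description and their adjusted p is given from the fit without the filter.

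**Figure D1:**
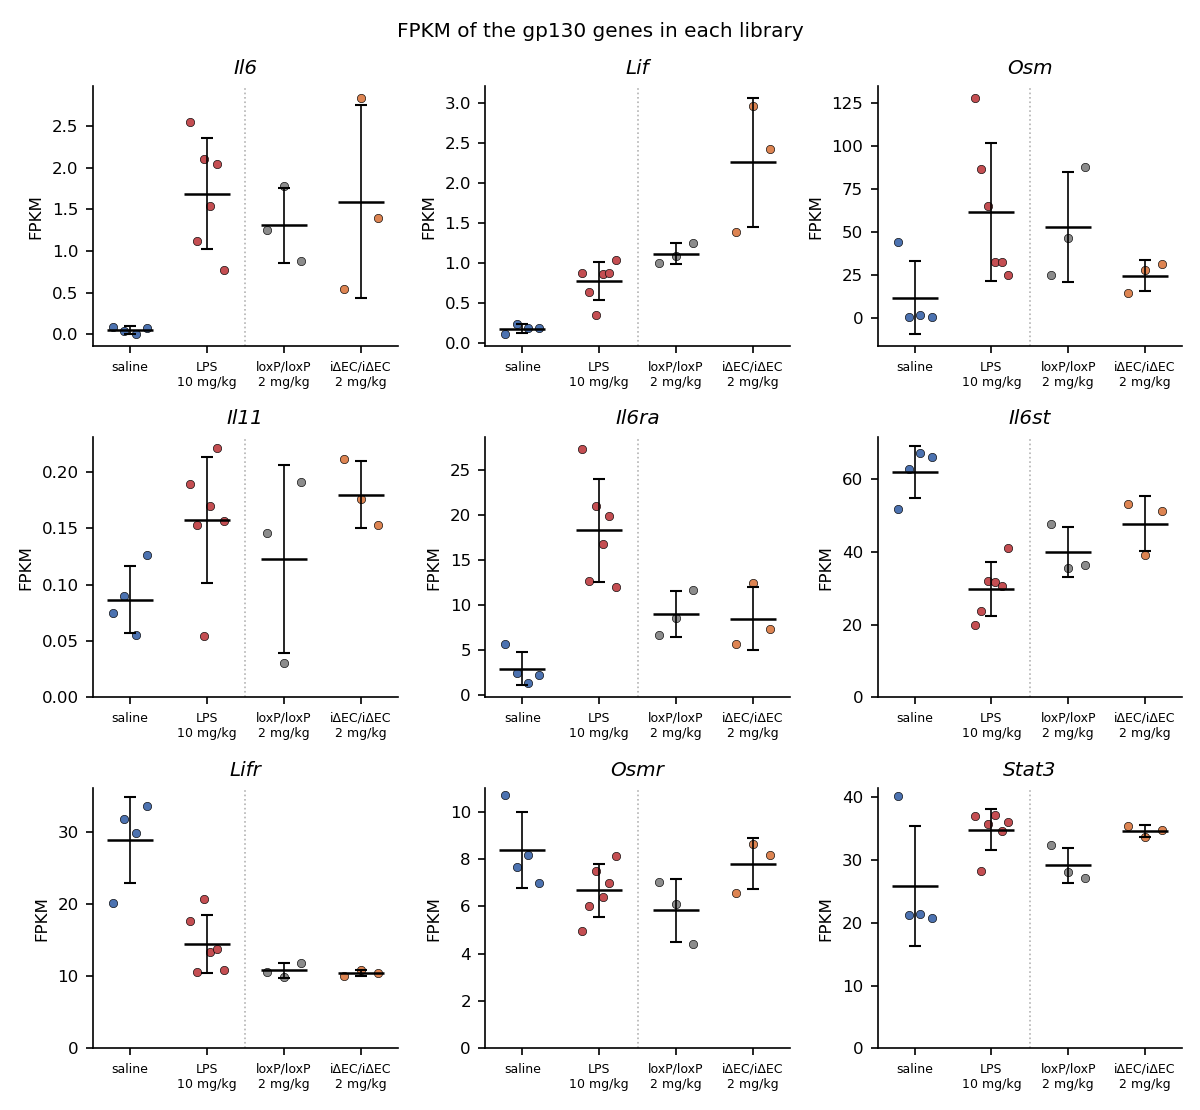
FPKM (linear axis, a separate range for each gene) of the 9 members in each library, with points for libraries, horizontal lines for group means and bars for 1 SD; the dotted line parts the experiments, whose tables were normalized separately. The 6 LPS libraries lie above all 4 saline libraries for Il6, Lif and Il6ra and below them for Il6st, and saline 1 stands apart from the other saline libraries for Osm and Stat3.

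Il6, which encodes the cytokine IL-6, was close to the limit of detection in saline. The saline libraries held 3, 2, 0 and 4 reads (0.0934, 0.0372, 0 and 0.0837 FPKM for saline 1 to 4). In LPS it lay between 0.778 and 2.55 FPKM with a median of 1.79, on 36 to 114 reads. Every LPS library exceeded every saline library, as did 22.7% of all genes tested (exact permutation test, two-sided p = 0.00952, the smallest this design gives). The mean rose from 0.0536 ± 0.0433 (SD, n = 4) to 1.69 ± 0.666 FPKM (SD, n = 6), and the log2 fold change was 1.31 ± 0.20 (SE, limma adjusted p = 0.00113 without the filter) on the log2(FPKM + 1) scale, which understates the change of low genes. Over the 9 saline and 442 LPS reads the ratio for equal effective library size was 33.3, with an exact 95% interval of 17.4 to 73.3. Effective size is the size that the scaling of the FPKM implies, not the reads on genes. The interval covers counting error only. The gene (ENSMUSG00000025746) lies on the plus strand at chr5:30013114-30019981.

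Lif, which signals through LIFR and gp130, was also low and also rose. Saline libraries 1 to 4 held 0.104, 0.239, 0.180 and 0.187 FPKM, on 6 to 23 reads, and the LPS libraries held 0.353 to 1.04 FPKM with a median of 0.866, on 28 to 86 reads. The lowest LPS library exceeded the highest saline library (exact permutation p = 0.00952), and the log2 fold change was 0.58 ± 0.13 (SE, limma adjusted p = 0.01005 without the filter). Summed reads were 59 and 363, a ratio of 4.17 for equal effective library size (exact 95% interval 3.16 to 5.59, counting error only). With the filter, when LPS 1, 4, 5 or 6 was left out, the mean over the libraries fell under the filter and Lif was not tested. Lif (ENSMUSG00000034394, chr11:4257557-4272514) and Osm (ENSMUSG00000058755, chr11:4236420-4241026) lie near each other on the plus strand of the same chromosome.

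Osm, a cytokine known chiefly from activated neutrophils and macrophages, reached the highest mean of any member in LPS. In saline, 3 libraries were low, at 0.597, 1.40 and 0.559 FPKM in saline 2, 3 and 4, whereas saline 1 held 43.8 FPKM. LPS 1 to 6 held 128, 86.8, 65.3, 32.4, 32.4 and 24.8 FPKM, so saline 1 lay within the LPS range and the groups overlapped only through that library. The means were 11.6 ± 21.5 (SD, n = 4) and 61.6 ± 40.3 FPKM (SD, n = 6), and the log2 fold change was 3.71 ± 0.88 (SE, limma adjusted p = 0.00453; exact permutation p = 0.0381). Without saline 1 the log2 fold change was 4.86. Reads were ample, at 25 to 1317 in saline and 1075 to 5359 in LPS.

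Markers of neutrophils, like Osm, were higher in LPS than in saline and stood high in saline 1, but within LPS their order differed from that of Osm. The 8 neutrophil markers summed to 1380, 69.5, 306.8 and 74.1 FPKM in saline 1 to 4 and to 2730, 6638, 1620, 3428, 2478 and 1293 FPKM in LPS 1 to 6. In LPS 7 of the 8 were higher and none lower, and the most abundant, S100a9, ranged from 37.4 to 4355 FPKM over the 10 libraries. Monocyte and macrophage markers were higher for 7 of 8 (summed 375.3 to 1203 FPKM in saline and 2060 to 4721 in LPS, led by Lyz2), as were 6 of 6 general leukocyte markers (76.5 to 227.5 and 641.3 to 1554 FPKM, led by Coro1a), and no marker of these lists was at 0 in all libraries although cells with CD45 had been depleted. Saline 1 was the highest saline library for all 3 lists. In LPS 1 to 6, monocyte and macrophage markers summed to 4721, 4266, 2922, 3279, 3949 and 2060 FPKM. General leukocyte markers summed to 1554, 1408, 1049, 1096, 1191 and 641.3 FPKM in the same libraries. Like Osm, both of these lists were highest in LPS 1, next in LPS 2 and lowest in LPS 6, with another order between. The part of these cells in the levels of Osm, Il6, Il6ra or any other member was not tested.

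**Figure D2:**
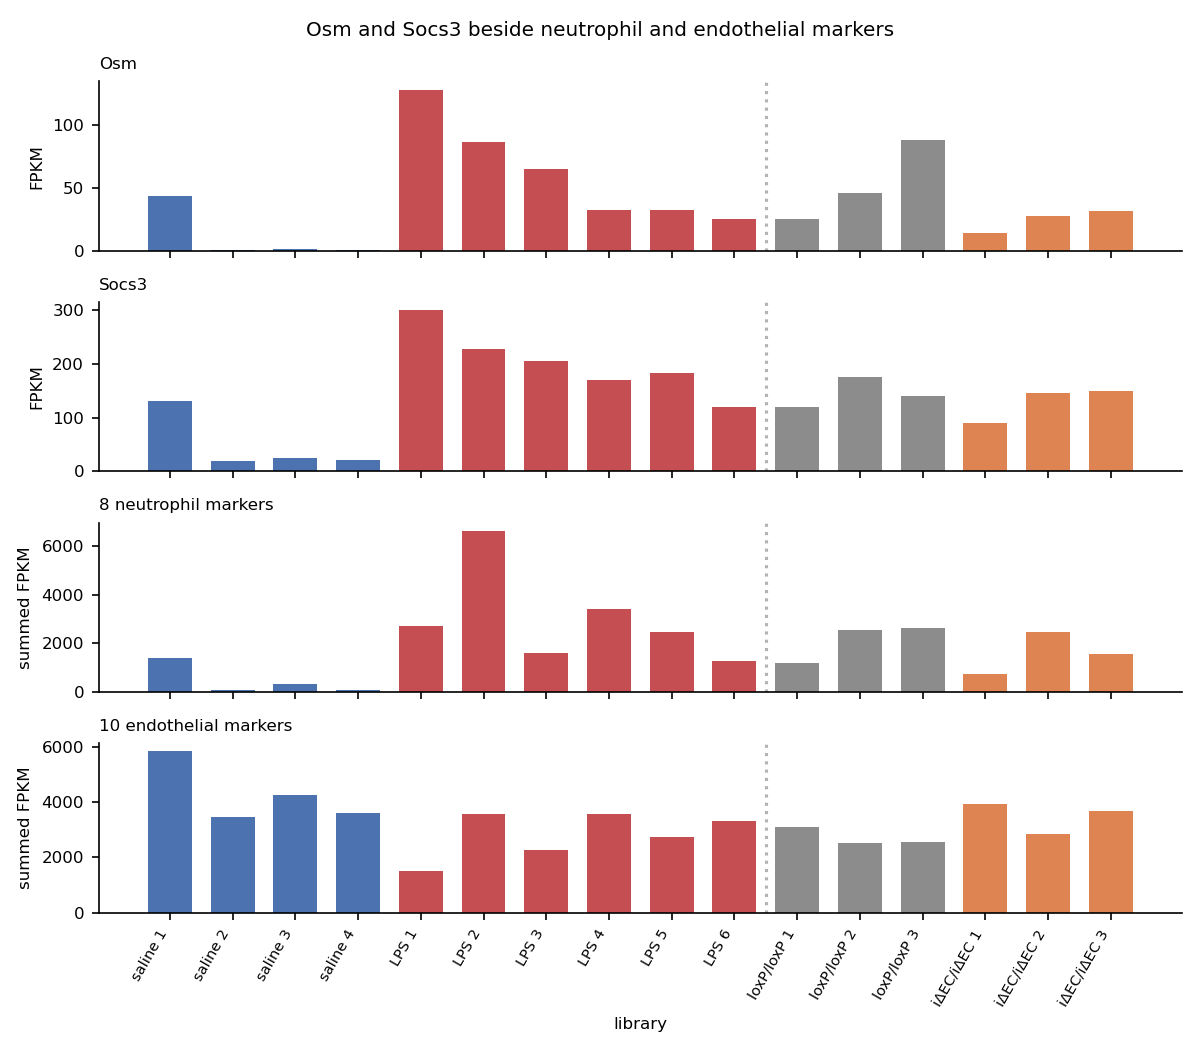
Osm and Socs3 (FPKM) and the summed FPKM of 8 neutrophil and 10 endothelial markers in each library (bars, linear axes from 0), coloured by group, with a dotted line between the separately normalized experiments. Saline 1 reached 43.8 FPKM of Osm and 1380 FPKM of neutrophil markers, above the other saline libraries, and LPS 1 was highest for Osm while LPS 2 was highest for neutrophil markers.

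Il11 (ENSMUSG00000004371, chr7:4772373-4782857, minus strand), a cytokine best known from fibroblasts, was barely detected. It held 2 to 5 reads per library in saline and 2 to 8 in LPS (0.0867 ± 0.030 and 0.157 ± 0.0563 FPKM), with 13 and 34 reads in all. The ratio for equal effective library size was 1.77 with an exact 95% interval of 0.913 to 3.66, and the exact permutation p was 0.0667. A difference was not detectable at this depth.

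Among the receptors, Il6ra rose while gp130 and Lifr fell. Il6ra (ENSMUSG00000027947, chr3:89864059-89913196, minus strand), the chain that gives IL-6 its specificity, held 5.61, 2.43, 1.32 and 2.24 FPKM in saline 1 to 4 and 12.04 to 27.4 FPKM, with a median of 18.3, in LPS. No saline library reached the lowest LPS library. The mean went from 2.90 ± 1.87 (SD, n = 4) to 18.3 ± 5.75 FPKM (SD, n = 6), and on the log2(FPKM + 1) scale the change was 2.36 ± 0.29 (SE, limma adjusted p = 7.62e-05; exact permutation p = 0.00952). Gm42809 overlaps Il6ra on the other strand, and without a stated strand setting their reads cannot be told apart.

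Il6st (ENSMUSG00000021756, chr13:112464070-112510086, plus strand) was the most abundant member in saline. Saline 1 to 4 held 51.7, 62.8, 67.3 and 66.2 FPKM, and LPS libraries held 19.8 to 41.0 FPKM with a median of 31.2. Every LPS library lay below every saline library, as for 16.7% of all genes tested. The mean fell from 62.0 ± 7.09 (SD, n = 4) to 29.8 ± 7.38 FPKM (SD, n = 6), and on the log2(FPKM + 1) scale the change was -1.06 ± 0.18 (SE, limma adjusted p = 0.00071; exact permutation p = 0.00952).

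Lifr (ENSMUSG00000054263, chr15:7090614-7197489, plus strand) was, like Il6st, lower in LPS. Its ratio to Il6st varied among the LPS libraries, from 0.266 in LPS 6 to 0.888 in LPS 1. Saline 1 to 4 held 20.2, 31.8, 29.8 and 33.6 FPKM, and the LPS libraries held 10.6 to 20.8 FPKM with a median of 13.5. Saline 1 and LPS 3 met, and the other libraries of the groups were apart. The log2 fold change was -0.96 ± 0.20 (SE, limma adjusted p = 0.00242; exact permutation p = 0.019).

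Osmr (ENSMUSG00000022146, chr15:6813577-6874969, minus strand) held 10.7, 7.69, 8.17 and 7.005 FPKM in saline 1 to 4 and 4.97 to 8.15 FPKM, with a median of 6.70, in LPS. The groups overlapped, and the log2 fold change of -0.29 ± 0.15 (SE) did not pass the test (limma adjusted p = 0.113). Its value was -0.47 when scaled on total reads and -0.40 after quantile normalization, past the threshold in each, and 0.35 when scaled on endothelial markers.

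Endothelial markers fell with Il6st and Lifr in part. Of 10 endothelial markers, 5 were lower and none higher in LPS, with a median log2 fold change of -0.68 against 0.01 over all genes tested. After quantile normalization all 10 were lower (median -1.21). They summed to 5849, 3473, 4280 and 3610 FPKM in saline 1 to 4 and to 1524 to 3596 FPKM in LPS, and the most abundant was Cldn5. When libraries were scaled so that this list was level, 3 of its genes were called higher and 2 lower. The median of all genes moved to 0.57. Il6st moved to -0.35 (limma adjusted p = 0.152) and Lifr to -0.27 (limma adjusted p = 0.520), while Osm, Il6ra and Stat3 stayed called higher. Il6 and Lif were also called there, but that fit held the filter, which they pass only through LPS. Their calls are therefore no check on the scaling. In RNA of whole populations, fewer ECs and less RNA per EC cannot be told apart.

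In ratios of receptor transcripts within a library, a factor that scales the whole library cancels, apart from the pseudocount of 0.1 FPKM. Quantile normalization is not such a factor. The log2 ratio of Il6ra to Il6st went from -4.55 ± 1.00 in saline to -0.72 ± 0.72 in LPS (SD), a difference of 3.83 without overlap of the groups (exact permutation p = 0.00952, 0.0381 after adjustment over the 4 ratios compared). The ratio of Osmr to Il6st was 0.76 higher in LPS with overlapping groups (exact permutation p = 0.0286, adjusted 0.0571). That of Osmr to Lifr differed by 0.68 (exact p = 0.0857, adjusted 0.114), or by 0.97 without saline 1 (exact p = 0.0238 before adjustment). For Lifr to Il6st the difference was 0.08 (exact p = 0.829), from -1.12 ± 0.18 in saline to -1.04 ± 0.59 in LPS.

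**Figure D3:**
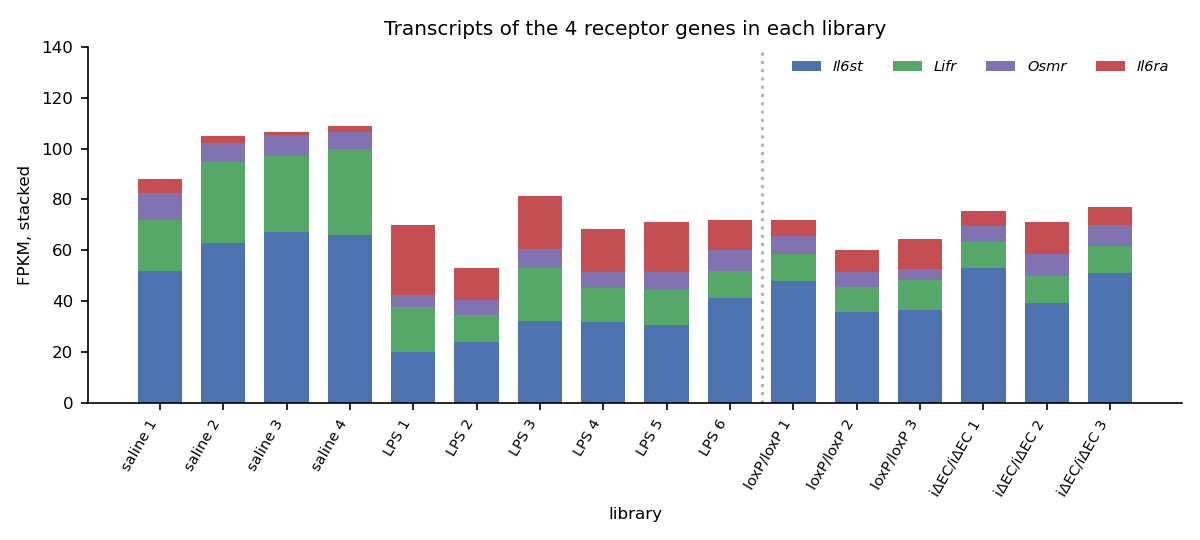
Stacked FPKM (linear axis from 0) of Il6st, Lifr, Osmr and Il6ra in each library, with a dotted line between the separately normalized experiments. Il6ra is a thin segment of at most 5.61 FPKM in saline and a segment of 12.04 to 27.4 FPKM in LPS, where Il6st shrinks to 19.8 to 41.0 FPKM.

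Stat3 (ENSMUSG00000004040, chr11:100885098-100939540, minus strand), the factor that gp130 activates, was called higher by a narrow margin. Saline 1 held 40.3 FPKM, above every LPS library, while saline 2, 3 and 4 held 21.2, 21.3 and 20.7 FPKM and the LPS libraries 28.3 to 37.2 FPKM with a median of 35.9. Apart from saline 1, each saline library lay below each LPS library. The log2 fold change was 0.47 ± 0.18 (SE, limma adjusted p = 0.0486; exact permutation p = 0.0667), or 0.69 without saline 1. The call was lost when saline 2, 3 or 4 or LPS 1, 3, 4, 5 or 6 was left out (adjusted p = 0.0711 to 0.145). It was also lost on total reads (0.27, limma adjusted p = 0.170) and after quantile normalization (0.09, adjusted p = 0.665). Scaled on endothelial markers, Stat3 was 1.16 higher on the log2 scale (limma adjusted p = 0.00288). Stat5a overlaps Stat3 on the other strand.

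**Figure D4:**
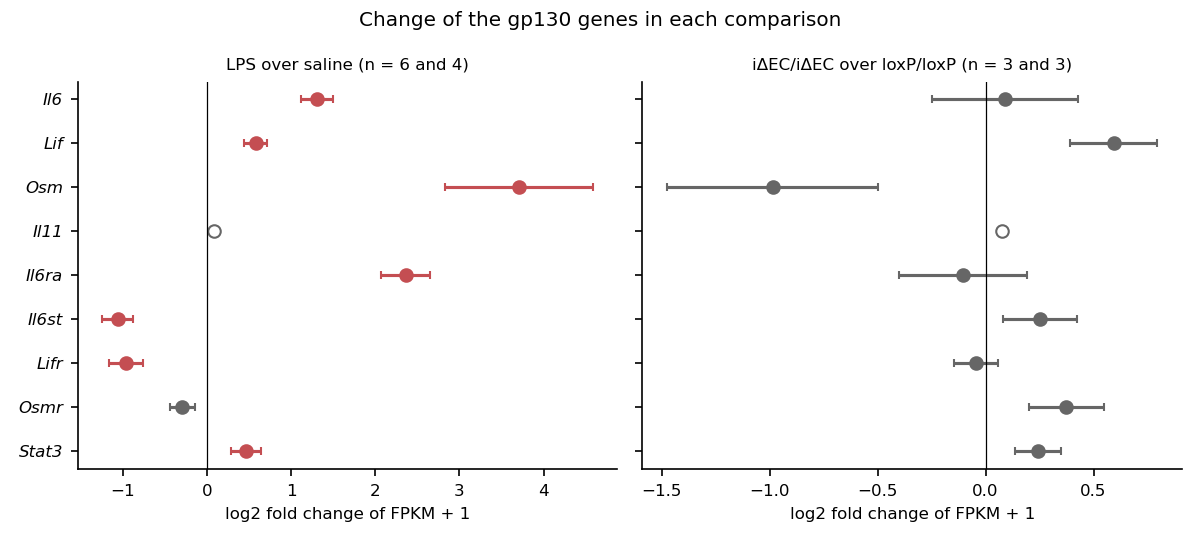
Log2 fold change of FPKM + 1 with its SE for each member, LPS over saline on the left and iΔEC/iΔEC over loxP/loxP on the right (the horizontal ranges differ); red marks a limma adjusted p at or under 0.05, grey a value that did not pass, and open circles Il11, which was not tested. In LPS, Osm is highest at 3.71 and Il6st lowest at -1.06, and no point on the right is red. On the left, Il6 and Lif are drawn from the fit with the filter, which they pass only through LPS.

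In order of mean FPKM, a level per gene length, saline placed Il6st first at 62.0, then Lifr at 28.9, Stat3 at 25.9, Osm at 11.6, Osmr at 8.39, Il6ra at 2.90 and Lif at 0.178, with Il11 and Il6 lowest. Il6st, Osmr and Il6ra were apart from the gene after them, and the ranges of the other neighbours overlapped. The place of Osm rested on saline 1, the 1 library of 4 in which it exceeded Osmr, and without that library its mean of 0.854 FPKM came after Osmr at 7.62 and Il6ra at 2.00. In LPS the order was Osm at 61.6, Stat3 at 34.8, Il6st at 29.8, Il6ra at 18.3, Lifr at 14.5, Osmr at 6.68, Il6 at 1.69, Lif at 0.773 and Il11 at 0.157. The first 5 overlapped with their neighbours, whereas Lifr and Osmr, Osmr and Il6, and Lif and Il11 did not.

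The member profiles over the 10 libraries fell into a set with high values in LPS and a set with low values. By the root mean square distance between standardised log2(FPKM + 1) profiles, Il6 was nearest to Il6ra among the members (0.286), Osm to Il6ra (0.454) and Il6st to Lifr (0.720). Over all genes tested, the 3 nearest were Map3k14, Abcd2 and Tspan14 for Il6 (0.106 for the first), Ttc7, Rassf5 and Atp8b4 for Il6ra (0.0946), and Ppp1r3b, Zfp36 and Socs3 for Osm (0.131). For Il6st they were Amotl1, Nrp1 and Rbfox2 (0.120), for Lifr Zfand1, Fbxl18 and Gm16574 (0.225), and for Osmr Gm16124, Cgnl1 and Pkp4 (0.323). Lif was nearest to S100a4, Ythdf2 and Ctdp1 (0.299) and Stat3 to Tmed7, Eif5 and Azin1 (0.167). These distances share the libraries and the difference between groups, and they are descriptions.

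Beyond the members, the other cytokines of the family included the IL-27 subunits, which were higher in LPS. Of 8 such genes 4 were tested, with 2 higher and 1 lower (50% and 25%, beside 29.5% and 23.7% of all genes tested), and Il27, like Il6, passed the filter only through the LPS group and had to differ. Ebi3, the subunit that pairs with p28 to form IL-27, rose from 1.22 ± 1.14 to 29.9 ± 10.5 FPKM (log2 fold change 3.85 ± 0.32, SE, limma adjusted p = 6.13e-06). Il27, which encodes p28, held 0 to 10 reads in saline and 52 to 134 in LPS (0.319 ± 0.341 and 4.73 ± 1.66 FPKM) and rose by 2.10 ± 0.25 on the log2 scale (SE, limma adjusted p = 0.000268 without the filter). Every LPS library exceeded every saline library for both. Clcf1, a cytokine that acts on the CNTF receptor, fell from 15.4 ± 0.457 to 7.90 ± 2.29 FPKM (log2 fold change -0.93, limma adjusted p = 0.00186), with no call when scaled on endothelial markers. Of 5 further receptor genes listed, 2 were tested, and Il11ra1 (-0.16, limma adjusted p = 0.457) and Il27ra (-0.45, adjusted p = 0.140) did not pass. When saline 3 was left out, 1 of these 2 was called lower.

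Among 10 kinases and adaptors 3 were higher and 1 lower in LPS, with a median log2 fold change of 0.11. That is 30% and 10% of the list, beside 29.5% and 23.7% of all genes tested, so the share higher was that of the background. Grb2, an adaptor to the Ras pathway, rose by 0.93, Jak2, a kinase of the receptor complex, by 0.88, and Ptpn11, the phosphatase SHP-2, by 0.43, while the docking protein gene Gab1 fell by 0.63 on the log2 scale. On total reads the list held 2 higher and 1 lower, after quantile normalization 3 and 3, and scaled on endothelial markers 7 higher and 0 lower.

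Of 8 negative regulators, 4 were higher and 1 lower (50% and 12.5%, beside 29.5% and 23.7% of all genes tested). The count was 4 higher and 4 lower on total reads, 4 and 2 after quantile normalization or with limma-voom, and 4 and 0 when scaled on endothelial markers. Ptpn6, the phosphatase SHP-1 best known from blood cells, rose from 13.01 ± 5.38 to 188 ± 61.2 FPKM (log2 fold change 3.77, limma adjusted p = 5.27e-06). Socs3 held 131, 19.9, 23.9 and 20.4 FPKM in saline 1 to 4 and 120 to 300 FPKM in LPS, where only saline 1 exceeded the lowest LPS library (log2 fold change 2.48 ± 0.48, SE, limma adjusted p = 0.0014; 3.12 without saline 1). Socs1 and Ptpn2, further brakes on JAK signalling, rose by 1.19 and 1.10. The lower gene was Pias3, an inhibitor of STAT3 (-0.50, named after its value was seen).

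Of 5 genes for receptor shedding, 2 were higher and 1 lower, 40% and 20% of a short list and near the shares of all genes tested. On total reads the count was 1 higher and 1 lower, and scaled on endothelial markers 3 and 0. Adam17, the protease that sheds the IL-6 receptor, rose by 0.69 (12.2 ± 0.272 to 20.47 ± 3.05 FPKM) and the related Adam10 by 0.45, and Rhbdf1, a partner of Adam17, fell by 0.52 on the log2 scale (limma adjusted p = 0.0416). The call of Rhbdf1 was lost without any 1 of the 4 saline libraries, without LPS 2, 3 or 5, without the filter, with the replicate block and when scaled on endothelial markers.

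Of 20 genes listed as STAT3 targets, 17 were higher and 1 lower in LPS (85% and 5%, beside 29.5% and 23.7% of all genes tested), with a median log2 fold change of 1.67 against 0.01 over all genes tested. Hp (haptoglobin, an acute-phase protein) rose by 4.72 ± 0.58, Timp1 (a metalloproteinase inhibitor) by 4.53 ± 0.28, Cebpb (an acute-phase transcription factor) by 4.29 ± 0.61 and Nfil3 (a transcription factor) by 2.61 ± 0.66 on the log2 scale (SE). Their means went from 32.7 to 579, from 1.33 to 52.9, from 43.5 to 495 and from 7.66 to 23.7 FPKM. Each saline mean was raised by a single high library, the saline medians being 14.5, 0.906, 14.5 and 1.13 FPKM in the same order. The highest saline values were 94.3, 2.64, 135 and 27.5 FPKM. For Nfil3 that value exceeded the lowest LPS library (14.9 FPKM), so its groups overlapped. The lower gene was Lbp, which binds LPS (named after its value was seen). The count was 18 higher without saline 1 and 15 to 16 without saline 2, 3 or 4, and several of these genes are also expressed by leukocytes, whose markers rose as given above, a part that was not tested. Over all 6 lists, 49 of 56 genes were tested, with 28 higher and 5 lower (57.1% and 10.2%, beside 29.5% and 23.7% of all genes tested). The lists were chosen with earlier results of these data known. Their shares are therefore descriptions and no test against all genes.

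**Figure D5:**
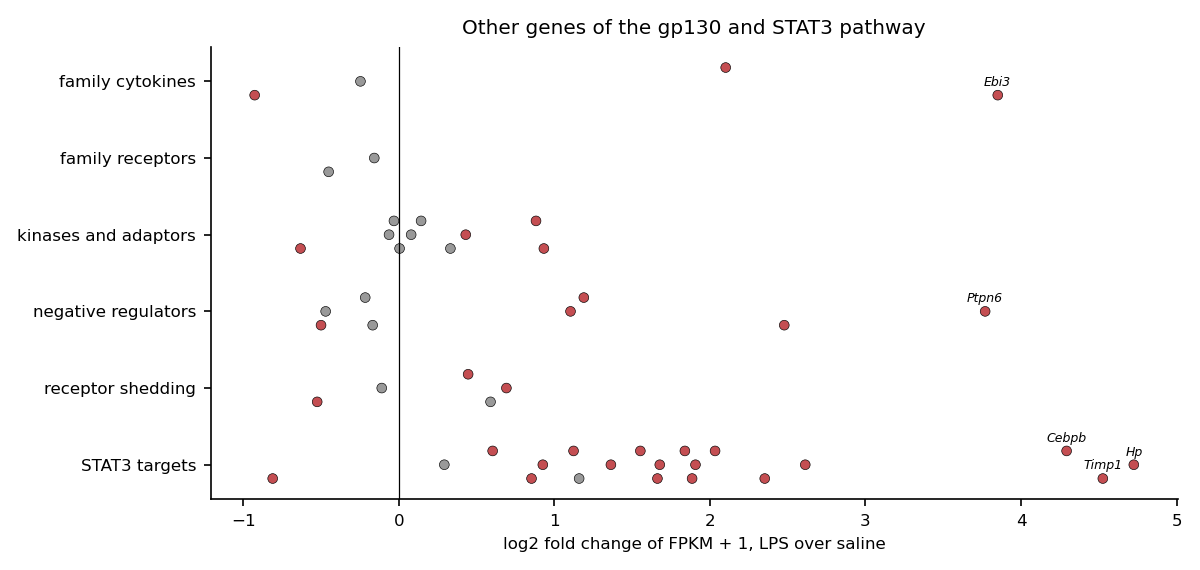
Log2 fold change of FPKM + 1, LPS over saline, for each tested gene of the 6 pathway lists (1 point per gene, spread vertically within a list for legibility), red where the limma adjusted p was at or under 0.05 and grey elsewhere, with genes above 3 named. STAT3 targets lie mostly to the right, with 17 of 20 called higher and Hp at 4.72. The lists were chosen with earlier results of these data known.

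To ask whether loss of endothelial Fgfr1 changed the family under LPS, iΔEC/iΔEC libraries were compared with loxP/loxP libraries. No member passed the test, and neither did any other gene (0% higher and 0% lower of 14945, limma, smallest adjusted p = 0.742), with 661 genes at an unadjusted p under 0.05 (608 by limma-voom on reads, which also called 0). Fgfr1 itself held 487, 472 and 465 reads in loxP/loxP and 111, 236 and 185 in iΔEC/iΔEC 1 to 3 (2.80 ± 0.181 and 1.08 ± 0.368 FPKM), lower in 3 of 3 pairs. With 3 libraries against 3 an exact permutation test cannot go below 0.1. Libraries of the same number deviated together and were read as pairs (loxP/loxP 1 with iΔEC/iΔEC 1 and so on). The labels give no pairing. It was taken from these same data, through correlations of 0.248, 0.178 and 0.187, so statements over pairs are descriptions.

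Lif stood at 1.38, 2.97 and 2.43 FPKM in iΔEC/iΔEC against 1.00, 1.09 and 1.25 in loxP/loxP, on 99 to 219 and 74 to 99 reads. Each iΔEC/iΔEC library lay above each loxP/loxP library, as for 6.1% of all genes, and the ratios within pairs were 1.38, 2.72 and 1.94. The log2 fold change of 0.59 ± 0.20 (SE) did not pass adjustment (limma adjusted p = 0.962; exact permutation p = 0.1).

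Osm was lower in iΔEC/iΔEC in 3 of 3 pairs, as were 12.8% of all genes, with overlapping groups. The loxP/loxP libraries held 24.9, 46.1 and 87.8 FPKM and the iΔEC/iΔEC libraries 14.1, 27.7 and 31.2 FPKM, with ratios of 0.567, 0.601 and 0.355. The log2 fold change of -0.99 ± 0.49 (SE) did not pass (limma adjusted p = 0.962), and it was -0.53 without loxP/loxP 3, -0.65 without iΔEC/iΔEC 1 and -1.43 without loxP/loxP 1. Summed neutrophil markers were also lower in 3 of 3 pairs (ratios 0.642, 0.957 and 0.593), as were epithelial (0.459, 0.652 and 0.283), mural (0.684, 0.893 and 0.561) and mesothelial markers (0.465, 0.413 and 0.502). Monocyte and macrophage markers (0.743, 1.05 and 0.630) and general leukocyte markers (0.673, 1.11 and 0.756) were lower in pairs 1 and 3 and higher in pair 2, where Osm was also lower. The part of these cells in the level of Osm was not tested.

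Stat3 and Il6st were higher in 3 of 3 pairs, a pattern shared by 18% of all genes. Stat3 went from 32.3, 28.0 and 27.1 to 35.5, 33.6 and 34.7 FPKM without overlap, and its log2 fold change was 0.24 ± 0.10 (SE, limma adjusted p = 0.962). Il6st held 47.7, 35.5 and 36.4 FPKM in loxP/loxP and 53.0, 39.1 and 51.2 in iΔEC/iΔEC, with overlapping groups and a log2 fold change of 0.25 ± 0.17 (SE, adjusted p = 0.962). For Il6st, leaving out single libraries gave 0.17 (without loxP/loxP 2) to 0.39 (without iΔEC/iΔEC 2). Endothelial markers, summed, were likewise higher in 3 of 3 pairs (ratios 1.27, 1.13 and 1.44), and scaled on them the log2 fold changes were -0.02 for Stat3 and -0.01 for Il6st. No member lay below in every iΔEC/iΔEC library, a pattern of 4.07% of all genes.

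The remaining members overlapped between the genotypes. Osmr was 5.84 ± 1.32 in loxP/loxP and 7.80 ± 1.07 FPKM in iΔEC/iΔEC (SD, n = 3 each; log2 fold change 0.37 ± 0.17, SE), higher in 2 of 3 pairs. Il6 was 1.31 ± 0.450 and 1.59 ± 1.16 FPKM, Il6ra 8.94 ± 2.56 and 8.46 ± 3.51 FPKM, and Lifr 10.8 ± 0.992 and 10.4 ± 0.414 FPKM. Il11 held 1 to 7 reads per library. Il6, Il6ra and Lifr changed sign when single libraries were left out, and Osmr ranged from 0.22 to 0.50. The 4 receptor ratios differed by -0.38 to 0.47 on the log2 scale, none past the test (exact permutation p = 0.2 to 0.7), and no gene of the 6 pathway lists was called. That test was unpaired. Within pairs, Lifr to Il6st was lower in iΔEC/iΔEC each time, at -2.39, -1.84 and -2.28 against -2.15, -1.83 and -1.61 in loxP/loxP. The other ratios went both ways.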

How the data were processed

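The authors isolated lung ECs (CD31+ CD45-) with magnetic beads, sequenced the RNA on an Illumina NovaSeq, aligned reads to GRCm38/mm10 with HISAT2 2.0.5 and counted them on genes with featureCounts 1.5.0-p3, and tested with DESeq2. Per the file headers, the deposited values are FPKM with gene lengths, in 2 tables normalized separately, so comparisons were made within a table. Strandedness, annotation release and the FPKM step are not given in the sources used here. FPKM times length came out as whole reads for 100.0% of values (within 0.1 read or 0.01%), which gave the reads quoted. The values already carried median-of-ratios scaling.

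log2(FPKM + 1) was compared with limma 3.58.1 in R 4.3.3 (lmFit, eBayes with trend) where a gene averaged 0.5 FPKM or more, with Benjamini-Hochberg adjustment. The fit was also run on simulated reads, which checks the code and not the results from these libraries. Single values were compared with two-sided exact permutation tests (scipy 1.17.1). Receptor ratios used a pseudocount of 0.1 FPKM. A floor of 3 reads marks the limit of detection, and reads without molecular identifiers are not independent molecules, so intervals cover counting error only. That each library came from a separate animal is not stated in the labels, so p-values measure the spread between libraries. The smallest chi-square per gene between replicates was 7.28, so none was a copy.

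The members and lists were chosen with earlier results of these data known. Named genes are the 9 members, every tested family cytokine and receptor, in the other lists the 4 largest called changes, and the 3 nearest profiles per member. A gene that this rule would name is not reported here. Marker lists for lymphocytes (0 higher and 3 lower of 5 tested), epithelium (0 and 2 of 9), fibroblasts (0 and 4 of 6), mural cells (0 and 1 of 7) and mesothelium (4 genes, all under 0.5 FPKM in the first experiment) were also counted in LPS over saline. Leaving out single libraries gave 1 to 3 lower for lymphocytes, 1 to 2 for epithelium, 1 to 5 for fibroblasts and 1 to 2 for mural cells. Without saline 1, 1 mural marker was higher. Sftpc, Cd79a, Col3a1, Acta2 and Msln were their most abundant genes, and Lum was under 0.5 FPKM in every library of the first experiment. The pairing check correlated deviations from group means: same-numbered libraries of the second experiment gave 0.248, 0.178 and 0.187, each above 0.1, a pairing taken from the data and not from the labels. Alternatives covered pseudocount, filter, fold limit, scaling, limma-voom on reads, a replicate block and leaving out each library. Promoter sequences are from RefSeq (GRCm38.p6).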

Additional observations from a re-analysis of the deposited data

Results flagged for a closer look

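Among 26 group values examined, 3 had a single library lying far off (Dixon's criterion, groups of 4 to 10 libraries), where chance gives about 1.3 at 1 in 20. Osm was 43.8 FPKM in saline 1, where saline 2 to 4 held 0.559 to 1.40 FPKM. Stat3 was 40.3 FPKM in saline 1, where saline 2 to 4 held 20.7 to 21.3 FPKM. Stat3 was 28.3 FPKM in LPS 2, the lowest of the LPS libraries, whose others held 34.7 to 37.2 FPKM. Saline 1 was also the shallowest library (13478726 reads on genes). In summed FPKM it was the highest saline library for neutrophil, macrophage, general leukocyte, epithelial, mural and endothelial markers. By mean log2(FPKM + 1), endothelial markers were higher in saline 3 (8.18) than in saline 1 (8.14). The cause was not tested.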

How the results depend on the processing

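With a limit of 1 on the absolute log2 fold change, 1768 genes were higher and 1011 lower in LPS, with 3 members higher and 1 lower. Scaled on endothelial markers, 7198 genes were higher and 787 lower, and 0 members were lower. Leaving out each library gave 3820 to 4624 genes higher, 2893 to 3751 lower, 3 to 5 members higher (3 without LPS 1, 4, 5 or 6) and 2 members lower. In the first experiment same-numbered libraries share only a number (correlations -0.209 to 0.097). There the replicate block gave 3438 higher and 2561 lower genes and 3 members higher, Lif (limma adjusted p = 0.0674) and Stat3 (0.112) no longer being called. In the second experiment the replicate block left 0 genes higher and 0 lower, with 1154 at an unadjusted p under 0.05, and changed no call. Stat3 was also not called by limma without the filter, on total reads, after quantile normalization (0.09) or with limma-voom and the filter (adjusted p = 0.0576), and was called with limma-voom without the filter (0.52, adjusted p = 0.0267), a fit chosen after seeing the data. Changes of sign were seen only for values that did not pass the test. Scaled on endothelial markers, Osmr was 0.35 in LPS over saline, and in iΔEC/iΔEC over loxP/loxP Il6 was -0.0311, Il6st -0.00943 and Stat3 -0.0167. Leaving out each library gave, between genotypes, -0.24 to 0.41 for Il6, -0.39 to 0.12 for Il6ra, -0.103 to 0.0228 for Lifr, -0.321 to 0.0496 for Socs3 and -0.0451 to 0.366 for the ratio of Osmr to Il6st, and in LPS over saline -0.10 to 0.25 for that of Lifr to Il6st (log2). The cause of these shifts was not tested. With 1 to 8 reads per library for Il11 over both experiments, small differences were not detectable.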
